A study of Mus musculus with 22 samples.

Results

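The 10 genes described here encode enzymes that clear superoxide and peroxides: the superoxide dismutases Sod1, Sod2 and Sod3, catalase (Cat), the glutathione peroxidases Gpx1, Gpx3 and Gpx4, and the peroxiredoxins Prdx1, Prdx3 and Prdx5. They were taken by name, through probes whose transcript accession maps to these symbols. All 10 had a probe, exactly 1 each, and all 10 were among the 15510 genes tested, so no member could be compared with a second probe of its own. Sod3 passed the filter on dim probes narrowly, with a signal well above background on 7 of 22 arrays. These were 4 of 6 day 28 controls, 1 of 5 day 1 controls, and 1 of 5 and 1 of 6 treated hearts at day 1 and day 28. Without the day 28 controls Sod3 would not have met the filter. Sod2 lost 3 of its 22 spots to quality marks of the scanner software, 2 in controls at day 28 and 1 in treated mice at day 28, so its values come from 19 arrays.

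Superoxide dismutases turn superoxide into hydrogen peroxide, Sod1 mainly in the cytosol, Sod2 in the mitochondrial matrix and Sod3 outside the cell. Catalase breaks hydrogen peroxide down in peroxisomes, glutathione peroxidases reduce peroxides with glutathione, and peroxiredoxins do so through a reactive cysteine that thioredoxin usually restores. Heart muscle is rich in mitochondria, a main source of superoxide in this tissue, and Sod2, Prdx3 and Prdx5 act there.

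Hearts came from female C57BL/6 mice, bought at 5 to 7 weeks of age and acclimatised for 1 to 3 weeks. Treated mice received 162 µg of nano-TiO2, titanium dioxide nanoparticles, in a single instillation into the trachea, suspended in saline with cell-free lavage fluid from the airways of untreated mice. Controls received that liquid without particles, and all 4 groups were instilled under anaesthesia. The groups were control day 1 (5 mice), nano-TiO2 day 1 (5 mice), control day 28 (6 mice) and nano-TiO2 day 28 (6 mice), with 1 mouse per array. Heart RNA was labelled with Cy5 on every array and a reference RNA pooled from 11 mouse cell lines with Cy3, with no dye swap. Values are log2 ratios of heart to reference, and a ratio above 0 means a brighter heart channel. A level set between genes by this ratio also depends on the reference, so the order of genes below is an order of ratios and not of transcript abundance.

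The labels call the tissue heart while their extraction text speaks of lung. The heart muscle genes Myh6, Tnnt2, Actc1 and Myl2 had mean ratios of 4.94, 5.64, 5.94 and 6.02, while 2 genes of lung surfactant, Sftpc and Sftpb, did not rise well above background in any heart (0 of 22). Between 13485 and 21760 of 41174 probes were well above background in Cy5 on an array. In 3 hearts the mean of 7 atrial marker genes lay below -3 on the log2 scale relative to those genes' average over all hearts: control day 1 replicate 2, nano-TiO2 day 1 replicate 1 and nano-TiO2 day 28 replicate 1. In 3 others, all control day 28 (replicates 1, 4 and 5), the mean of the lung epithelium or of the liver markers lay above 2. The lung list rests on 2 of 7 genes, Scgb1a1 and Scgb3a1 of the airway lining, and the liver list on 5 of 6, among them Alb. Several group differences below are also given without these hearts. Relations over mice were computed without the 3 hearts with low atrial markers, but not without the 3 day 28 controls.

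Gpx3, Gpx1 and Prdx5 are the 3 members that limma called between the control groups in the main fit (adjusted p under 0.05). Sod1 is 1 of 2 members with an antioxidant response element core. The sequences around the start sites of these genes are printed to show what their promoters hold. Each runs 5′ to 3′ over 300 bases (RefSeq, GRCm38.p6) from the gene's own strand. Capitals mark the GC box GGGCGG and the core TGACNNNGC of the antioxidant response element, searched on both strands; neighbouring GC boxes in Sod1 overlap.
Gpx3, chr11:54902604-54902903, plus strand: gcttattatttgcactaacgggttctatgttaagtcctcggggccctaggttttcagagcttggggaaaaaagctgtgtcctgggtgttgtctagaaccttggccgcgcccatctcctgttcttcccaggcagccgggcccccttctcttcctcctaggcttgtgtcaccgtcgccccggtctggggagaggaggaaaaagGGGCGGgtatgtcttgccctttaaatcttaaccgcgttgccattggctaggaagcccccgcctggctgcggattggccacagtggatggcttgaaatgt
Gpx1, chr9:108338830-108339129, plus strand: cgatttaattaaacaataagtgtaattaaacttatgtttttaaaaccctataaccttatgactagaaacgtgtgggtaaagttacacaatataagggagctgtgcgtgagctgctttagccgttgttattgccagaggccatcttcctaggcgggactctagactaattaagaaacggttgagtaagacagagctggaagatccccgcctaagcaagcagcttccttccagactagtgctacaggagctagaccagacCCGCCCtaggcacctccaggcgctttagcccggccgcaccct
Prdx5, chr19:6910057-6910356, minus strand: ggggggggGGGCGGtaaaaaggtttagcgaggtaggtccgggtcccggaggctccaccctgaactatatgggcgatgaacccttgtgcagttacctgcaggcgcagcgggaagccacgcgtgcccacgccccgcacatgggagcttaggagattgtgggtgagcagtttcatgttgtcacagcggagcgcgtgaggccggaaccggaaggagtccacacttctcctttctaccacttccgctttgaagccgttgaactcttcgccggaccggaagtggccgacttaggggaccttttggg
Sod1, chr16:90220512-90220811, plus strand: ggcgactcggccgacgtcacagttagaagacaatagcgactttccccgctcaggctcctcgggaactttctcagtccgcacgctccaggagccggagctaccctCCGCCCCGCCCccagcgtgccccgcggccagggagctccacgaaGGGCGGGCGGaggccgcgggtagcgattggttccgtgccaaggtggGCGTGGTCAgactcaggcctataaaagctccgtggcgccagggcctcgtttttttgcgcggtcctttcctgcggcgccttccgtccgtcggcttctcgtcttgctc
RefSeq promoters were found for 9 of the 10 genes, 12 windows in all, of which 4 belong to Gpx4 and 2 of those 4 overlap. None was found for Sod3. The GC box stood in 11 of these 12 windows, and in at least 1 window of 9 of 9 genes, and in 35.7% of 32851 mouse promoters of the same length. The antioxidant response element core, the recognition sequence of the stress-activated factor Nrf2, stood in 2 of 12 windows, or 2 of 9 genes, Prdx1 and Sod1, and in 12.4% of all promoters. A match describes letters only and says nothing of a factor's binding.

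In the heart relative to the reference, Gpx3 and Sod2 had the highest ratios and Prdx1 the lowest. Gpx3, the glutathione peroxidase secreted into plasma and tissue fluid, had a mean log2 ratio of 3.91 ± 0.60 (SD, n = 22), and Sod2 followed with 3.12 ± 0.26 (SD, n = 19). The reference channel of the Gpx3 spot was dim, at an intensity of 50 to 78 in day 1 controls, and the size of the ratio moved with the background handling: its mean was 5.16 with plain subtraction and 5.27 in the scanner's log ratios, the highest of the 10 in each case. Catalase stood at 2.09 ± 0.18 and the mitochondrial peroxiredoxin Prdx3 at 1.76 ± 0.19. Gpx4, which reduces lipid peroxides in membranes, stood at 1.01 ± 0.25, and Sod1 at 0.70 ± 0.17. Near equal brightness in heart and reference were Prdx5, found in mitochondria, peroxisomes and cytosol, at 0.36 ± 0.33, and Gpx1, the main cytosolic and mitochondrial glutathione peroxidase, at -0.17 ± 0.39. The cytosolic Prdx1 was dimmer in heart than in the reference, at -0.68 ± 0.24 (SD, n = 22 for each of these genes). Neighbours in this order often lay within each other's spread, as Gpx4 and Sod1 did. Sod3 has no place in the order: its heart signal was well above background on 7 of 22 arrays, and its mean ratio was 0.21 here and 1.40 in the scanner's log ratios. Between mice of 1 group Gpx3 varied with an SD of 0.42 and Gpx1 with an SD of 0.31, at the 96.1 and 90.8 percentile of all genes tested, against a median SD of 0.17. The plot of each member by group shows this spread. For Gpx3 the spread also moved with the background handling. The SE of its difference between the treated groups of the 2 days was 0.23 here, 0.12 with plain subtraction and 0.13 in the scanner's log ratios. Its percentile under those settings was not computed.

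**Figure D1:**
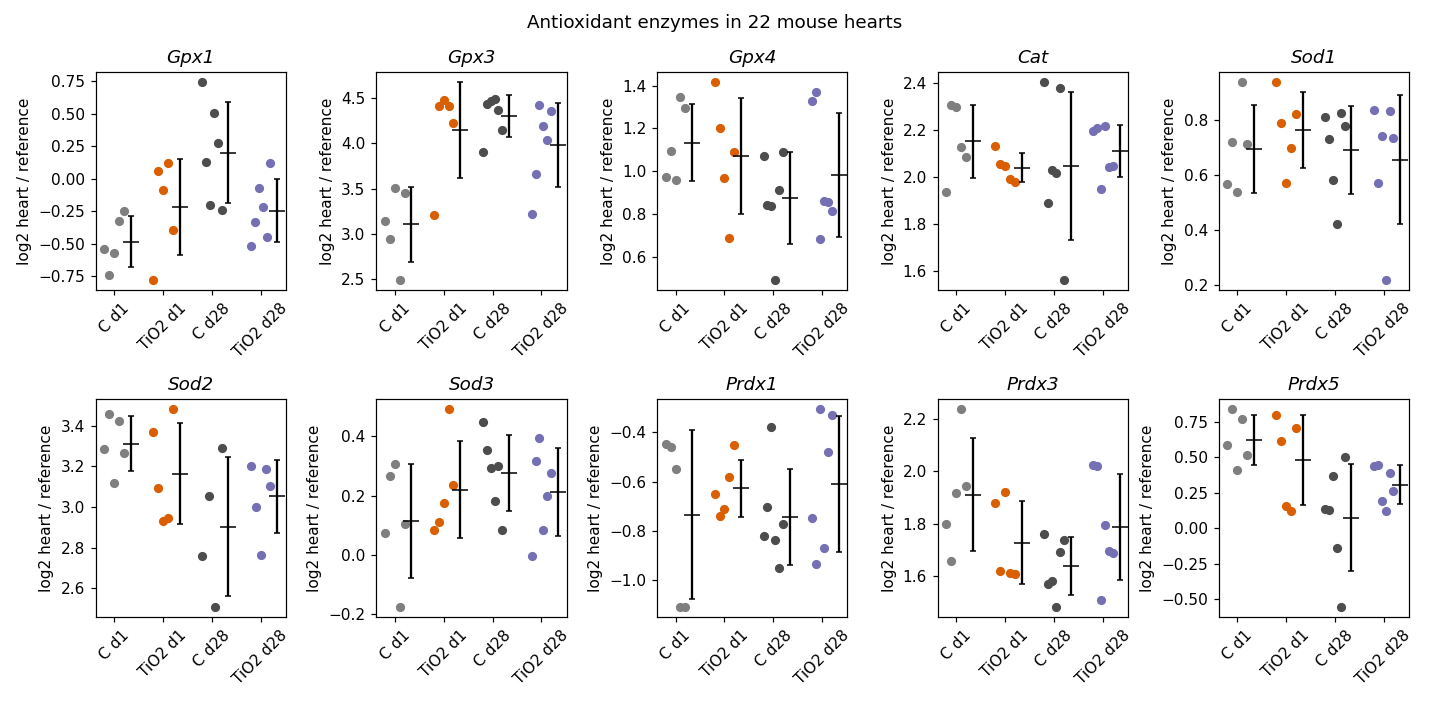
Log2 ratio of heart to reference (y axis of each panel) for the 10 members in the 4 groups (x axis; C, control; d, day); each point is 1 mouse, and the dash and bar beside the points are the group's mean ± SD. Gpx3 has its lowest mean in controls at day 1, and Sod2 lacks 3 spots that were left out.

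One day after instillation, treated and control hearts did not differ past the threshold (adjusted p under 0.05) in any of the 10 members. The largest difference was that of Gpx3. The 5 control hearts had ratios of 3.14, 2.94, 3.51, 2.49 and 3.45, and the 5 treated hearts 3.21, 4.41, 4.48, 4.41 and 4.22. In 4 of 5 treated hearts Gpx3 lay above every control, and in the remaining one, replicate 1, it lay within the control range. The difference was 1.04 ± 0.24 (SE; log2; 95% interval 0.54 to 1.54), with an adjusted p of 0.437 by limma over 15510 genes. The adjusted p was 0.021 without that treated heart, with a difference of 1.27, and 0.0062 without the 3 hearts with few atrial transcripts, with a difference of 1.23. That heart had the lowest Gpx3 ratio of its group and is 1 of those 3, so leaving it out could only raise the treated mean. With the scanner's log ratios the difference was -0.12, and with plain background subtraction it turned negative too. On the 4 slides that held both groups the Gpx3 difference ran from 0.07 to 1.92, and on the 3 scan days from 0.77 to 1.34. The atrial marker mean was higher in treated hearts by 1.38, the adipocyte marker mean by 1.91, the smooth muscle mean by 1.14 and the mesothelium mean by 0.71, and their part in the Gpx3 result was not tested.

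Gpx1 differed by 0.27 ± 0.18 at day 1 (adjusted p 0.682, limma), with 3 of 5 treated hearts above every control and 1 below. The other 8 members differed by between -0.18 (Prdx3) and 0.11 (Prdx1), each within an interval that spanned 0. Over all genes, limma called 0 of 15510 (0%), with 929 higher and 410 lower at an unadjusted p under 0.05. No member's groups were free of overlap, against 1.26% of genes higher and 0.426% lower. The median difference of the 10 members was 0.0039, and that of all genes 0.01.

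At day 28 no member differed past the threshold either, and the 2 largest differences pointed down. Gpx1 in control hearts ran from -0.24 through a median of 0.20 to 0.75, and in treated hearts from -0.52 through -0.28 to 0.12. The ranges overlapped, with 3 of 6 treated hearts below every control. Gpx1 was lower by -0.45 ± 0.17 (95% interval -0.79 to -0.10), with an unadjusted p of 0.014 and an adjusted p of 0.633 by limma. It was lower on 4 of the 6 slides that held both groups (-1.26 to 0.36) and on all 3 scan days (-0.87 to -0.18). Without the 3 control hearts with lung epithelium or liver transcripts the Gpx1 difference was -0.14 (adjusted p 0.999). Gpx3 differed by -0.32 ± 0.22 (95% interval -0.78 to 0.14). In the other 8 members the difference lay between -0.07 (Sod3) and 0.23 (Prdx5). The size for Sod3 moved with the processing, from -1.37 to -0.015 over 15 alternatives, none of which called it. Limma called 0 of 15510 genes (0%), with 306 higher and 871 lower at an unadjusted p under 0.05. Groups free of overlap were found for none of the members, and for 0.0451% of genes higher and 0.0774% lower. In the same comparison the adipocyte marker mean was lower by -1.46 and the atrial mean by -0.90. The liver mean was lower by -1.64, the lung epithelium mean by -1.38 the smooth muscle mean by -0.79 and the mesothelium mean by -0.49. The part of these tissues was not tested. The median difference of the members was 0.09, and that of all genes -0.01.

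The treatment effects at the 2 days were also set against each other. For Gpx3 the effect at day 28 minus that at day 1 was -1.36 ± 0.33 (95% interval -2.04 to -0.68; adjusted p 0.118, limma), and for Gpx1 -0.71 ± 0.25 (adjusted p 0.185). For Gpx3 this value turned positive in the scanner's log ratios (0.30) and when background was plainly subtracted (0.13). It was -1.40 without the 3 hearts with few atrial transcripts (adjusted p 0.018), -1.59 without nano-TiO2 day 1 replicate 1 (0.010) and -1.45 without nano-TiO2 day 28 replicate 3 (0.045), and so passed in these 3 fits. Without the control hearts with lung epithelium or liver transcripts the Gpx1 value was -0.41 (adjusted p 0.540). Prdx3 had the third smallest p, with 0.33 ± 0.15 (adjusted p 0.299). None of the 10 members, and 0 of 15510 genes (0%), passed, while 705 genes were higher and 1553 lower at an unadjusted p under 0.05.

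**Figure D2:**
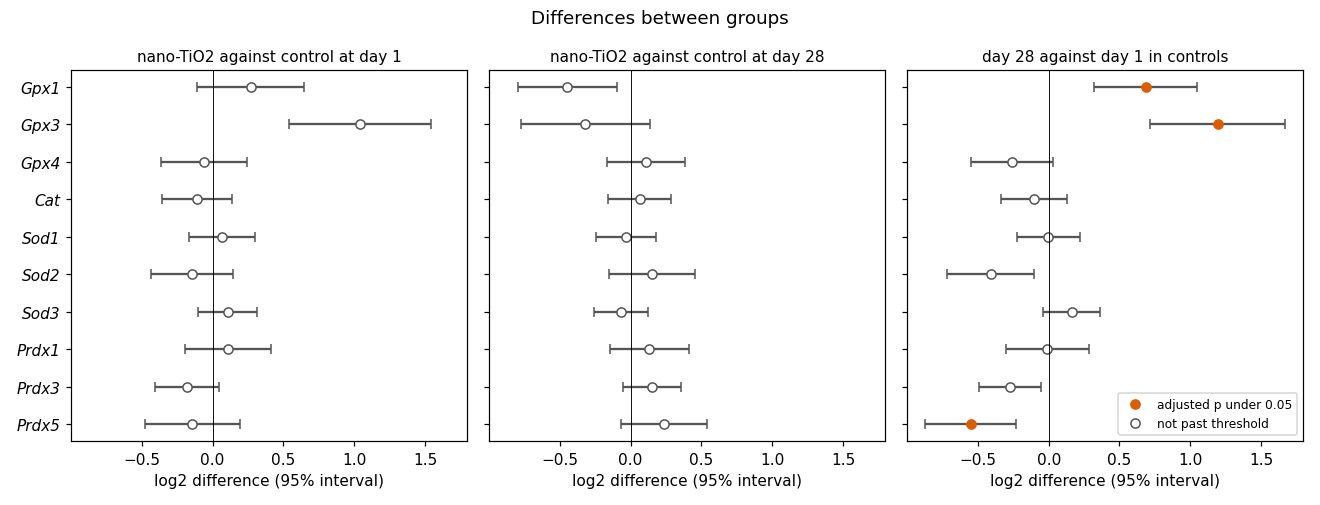
Log2 difference of the group means (x axis) for each member (y axis) in 3 comparisons; bars are 95% intervals from the limma fit, and filled points have an adjusted p under 0.05. The filled points are Gpx3, Gpx1 and Prdx5, all between the control groups of day 28 and day 1.

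The 3 members that passed the threshold did so between the 2 control groups. In the main fit Gpx3 and Gpx1 were higher and Prdx5 lower in vehicle hearts at day 28 than at day 1, and the other 7 members did not pass. For Gpx3 the direction between these groups depended on the background handling, as given below. These groups differ in time after instillation and in age. The 3 called members stand against 1611 of 15510 genes called by limma (10.4%), 1075 higher (6.93%) and 536 lower (3.46%).

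Gpx3 ratios in control hearts at day 28 were 3.91 at the lowest, 4.40 at the median and 4.49 at the highest. All 6 lay above the highest day 1 control, 3.51. The difference was 1.19 ± 0.23 (SE; log2; 95% interval 0.71 to 1.67), with an adjusted p of 0.0042 by limma. It kept its side of the threshold whichever control was left out, with an adjusted p of at most 0.015. Its sign did not hold under other background handling. It was -0.56 with the scanner's log ratios and also turned negative with plain background subtraction. In the main values, 3 of 9 slides held controls of both days, 1 array against 1 on each. There the Gpx3 difference ran from 0.91 to 0.97, and within scan days from 0.97 to 1.28.

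Gpx1 in the 5 controls at day 1 had ratios of -0.54, -0.74, -0.57, -0.33 and -0.25. In the 6 controls at day 28 it ran from -0.24 through a median of 0.20 to 0.75, so the groups touched but did not overlap. The difference was 0.69 ± 0.18 (95% interval 0.32 to 1.05), a 1.61-fold higher ratio with an adjusted p of 0.016 by limma, and 0.051 without control day 1 replicate 2. On the 3 slides with controls of both days, 1 array against 1 on each, it ran from 0.37 to 1.48. Gpx3 and Gpx1 were 2 of the genes whose control groups did not overlap with day 28 higher, which held for 4.64% of all genes. With day 28 lower it held for 0 members and 2.39% of genes.

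Prdx5 went the other way. The 5 controls at day 1 had ratios of 0.59, 0.84, 0.41, 0.77 and 0.52, and those at day 28 ran from -0.55 through a median of 0.14 to 0.50. In 5 of 6 day 28 hearts Prdx5 lay below every day 1 control. It was lower by -0.55 ± 0.15 (95% interval -0.87 to -0.23), a 1.46-fold lower ratio with an adjusted p of 0.026 by limma. That call was lost when any of 4 hearts was left out in turn (control day 1 replicates 2 and 4, control day 28 replicates 4 and 5), with adjusted p up to 0.074. On the 3 slides with controls of both days, 1 array against 1 on each, the Prdx5 difference ran from -1.07 to -0.04. Within scan days it ran from -0.67 to -0.30.

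Of the members that did not pass, Sod2 differed by -0.41 ± 0.15 (adjusted p 0.080, with 4 of 6 spots at day 28) and Prdx3 by -0.27 ± 0.10 (adjusted p 0.099). Gpx4 differed by -0.26 ± 0.14, Sod3 by 0.16 ± 0.10 and catalase by -0.10 ± 0.11. Sod2, Prdx3 and Sod3 passed in the scanner's log ratios, at -0.50 (adjusted p 0.013), -0.31 (0.014) and 1.38 (0.046). Sod3 met the filter on dim probes only through day 28 controls, where 4 of 6 were well above background, against 1 of 5 at day 1. Its call in this comparison therefore cannot be read as a difference. Sod1 and Prdx1 differed by less than 0.01, with 95% intervals from -0.23 to 0.22 and from -0.30 to 0.28. The median difference of the 10 members was -0.06, and that of all genes -0.0032.

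All 3 calls ended when slide was entered as a block, where limma called 0 genes: Gpx3 then differed by 0.90 (adjusted p 0.102), Gpx1 by 0.67 (0.148) and Prdx5 by -0.60 (0.129). They also ended without the 3 day 28 controls that held lung epithelium or liver transcripts, at 1.24 (adjusted p 0.064) for Gpx3, 0.38 (0.328) for Gpx1 and -0.29 (0.363) for Prdx5, with 27 genes called in all. A normexp fit on all spots and median centring in place of loess ended these calls as well, with the same signs. The adipocyte marker mean ran from -1.99 to -0.93 in day 1 controls and from -0.05 to 2.51 in day 28 controls, with 9 of 10 genes kept and Lep not well above background on any array. The atrial mean, with 7 of 7 genes kept, ran from -3.03 to 0.04 and from 0.68 to 1.28. The smooth muscle mean ran from -1.18 to -0.69 in day 1 controls and from 0.38 to 1.06 in day 28 controls. The mesothelium mean ran from -1.14 to -0.25 and from 0.25 to 0.87, and the macrophage mean from -0.63 to -0.11 and from -0.04 to 0.54. The ventricular cardiomyocyte mean was lower by -0.41 at day 28. The part of these tissues in the 3 results was not tested, and in whole hearts fewer cells of a type and less RNA per cell cannot be told apart.

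In treated mice no member passed the threshold between day 1 and day 28. Differences ran from -0.17 (Prdx5) to 0.07 (catalase), and limma called 0 of 15510 genes (0%), with 235 higher and 467 lower at an unadjusted p under 0.05. No member had groups free of overlap (0.277% of genes higher, 0.477% lower). For Gpx3 the treated hearts at day 28 ran from 3.22 through a median of 4.12 to 4.42, a range that overlapped that of the treated hearts at day 1. The difference was -0.17 ± 0.23 (95% interval -0.64 to 0.31).

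The 2 channels of the Gpx3 spot moved together. In Cy5, the heart, the median intensity was 355 in day 1 controls (202.5 to 633), 1526.5 in treated hearts at day 1 (378.5 to 2049), 2092.5 in day 28 controls (955 to 3467.5) and 1136.5 in treated hearts at day 28 (365 to 2694). In Cy3, the common reference, it was 57 in day 1 controls (50 to 78) and 182.5 in day 28 controls (160 to 250), with no overlap, although the same reference RNA was named for every array. The median Cy3 intensity over all genes was 242 and 249 in these 2 groups. Cy3 alone, normalized between arrays, differed for Gpx3 by 1.33 ± 0.24 between the control groups (unadjusted p 1.9e-05, adjusted p 0.162, limma; 0% of genes called) and by 0.69 ± 0.25 between treated and control hearts at day 1. Other members' Cy3 differences between the control groups lay between -0.13 (Gpx4) and 0.0026 (Cat).

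The sign of the Gpx3 difference depended on how background was handled. With the scanner's own log ratios it was -0.56 between the control groups (adjusted p 0.0066), -0.12 at day 1 and 0.18 at day 28, and with plain background subtraction -0.35, -0.01 and 0.11, in each case opposite to the values above. From Cy5 alone it was 2.11 between the control groups (adjusted p 0.0035), 1.40 at day 1 and -0.73 at day 28. Gpx1 and Prdx5 kept the sign of their difference between the control groups under these settings.

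**Figure D3:**
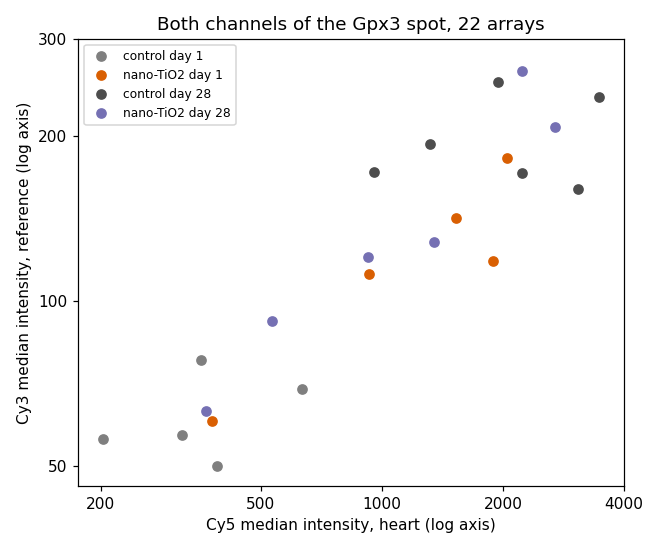
Median intensity of the Gpx3 spot in the heart channel (x axis, Cy5) and in the reference channel (y axis, Cy3), both on log axes, 1 point per array and colour by group. Day 1 controls sit at the lower left, at 50 to 78 in Cy3, and day 28 controls at the upper right, at 160 to 250.

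Members were also set against the mean of adipocyte, atrial and erythroid marker genes over mice, with group means subtracted (30 relations, permutation within groups with 100000 draws, two-sided, Benjamini-Hochberg over the 30; 12 passed). The share of all genes that would pass was not computed, so this count cannot be read as particular to the members. All relations over mice used the main values only. They were not computed with the scanner's log ratios or plain background subtraction, which turned the sign of the Gpx3 differences between groups. Gpx3 followed the atrial markers most closely, with r = 0.89 and rho = 0.91 (n = 22; permutation p 0.00018 and adjusted p 0.0027 for r; 2e-05 and 0.0006 for rho). Without the 2 hearts farthest from the median r was 0.77, and without the 3 hearts with few atrial transcripts it was 0.87 (n = 19). Within the 3 scan days it was 0.95, 0.87 and 0.92. Gpx1 followed the adipocyte markers, with r = 0.76 and rho = 0.74 (permutation p 0.00017 and adjusted p 0.0027 for r; 0.00099 and 0.0099 for rho). Its r was 0.68 without the 2 farthest hearts and 0.29, 0.89 and 0.86 within scan days. The scan days hold 6, 8 and 8 mice, too few for a low or a high value to tell whether a relation held on that day. This limit applies to Gpx3 as to Gpx1.

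Sod2 ran against the erythroid markers, 3 of 7 of which were kept, with r = -0.72 and rho = -0.70 (n = 19; permutation adjusted p 0.020 and 0.017). Sod3 followed the adipocyte markers with r = 0.60 and rho = 0.57 (permutation adjusted p 0.021 and 0.029), though its signal, 70 to 94.5, was close to the background of 63 to 79. Gpx3 followed the adipocyte markers with r = 0.63, which was 0.35 without the 3 hearts with few atrial transcripts. For Gpx4 and the atrial markers r was -0.59, and -0.37 without the 2 farthest hearts. Gpx1 also passed with the atrial markers (r = 0.55, permutation adjusted p 0.021) and the erythroid markers (0.59, 0.031). Gpx3 passed with the erythroid markers too (0.57, 0.039). Both genes thus passed with all 3 lists, and neither relation was particular to 1 list. The remaining relations that passed were Prdx5 with the adipocyte (-0.53) and atrial markers (-0.45) and Sod1 with the erythroid markers (-0.52).

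**Figure D4:**
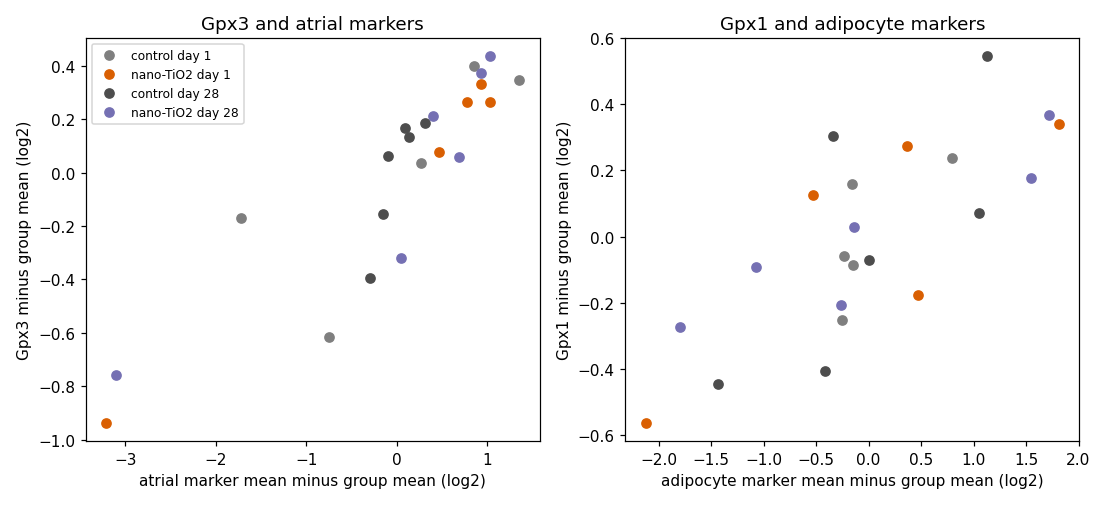
Gpx3 against the atrial marker mean (left) and Gpx1 against the adipocyte marker mean (right), log2 values with the group mean subtracted, 1 point per mouse and colour by group. Gpx3 rises with the atrial markers (r = 0.89), with 2 treated hearts at the far lower left, and Gpx1 with the adipocyte markers (r = 0.76).

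Among themselves, the members fell into relations of both signs, again over mice with group means subtracted (45 pairs, permutation within groups, Benjamini-Hochberg over the 45; 11 passed for r). The share among pairs of all genes was not computed, so this count cannot be read as particular to the members. The closest pair was Sod2 and Prdx5, with r = 0.87 and rho = 0.89 (n = 19; permutation adjusted p 0.0009 and 0.0004), at 0.85, 0.72 and 0.98 within scan days and 0.87 without the 2 farthest hearts. Gpx4 and Prdx3 had r = 0.72 and rho = 0.73 (permutation adjusted p 0.0057 and 0.011), and Sod1 and Sod2 r = 0.71 and rho = 0.69 (permutation adjusted p 0.0057 and 0.013). Against one another ran Gpx3 and Gpx4, with r = -0.75 and rho = -0.69 (permutation adjusted p 0.0057 and 0.013), at -0.20, -0.72 and -0.58 within scan days. Gpx1 and Sod2 had r = -0.67 (permutation adjusted p 0.041), at -0.79, -0.80 and -0.86 within scan days. All values within scan days rest on 6 to 8 mice each, too few to tell whether a relation held on a given day. Prdx1 and Prdx3, which both carry the name peroxiredoxin, had r = -0.69 (permutation adjusted p 0.023). Catalase and Sod3 passed with no other member.

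**Figure D5:**
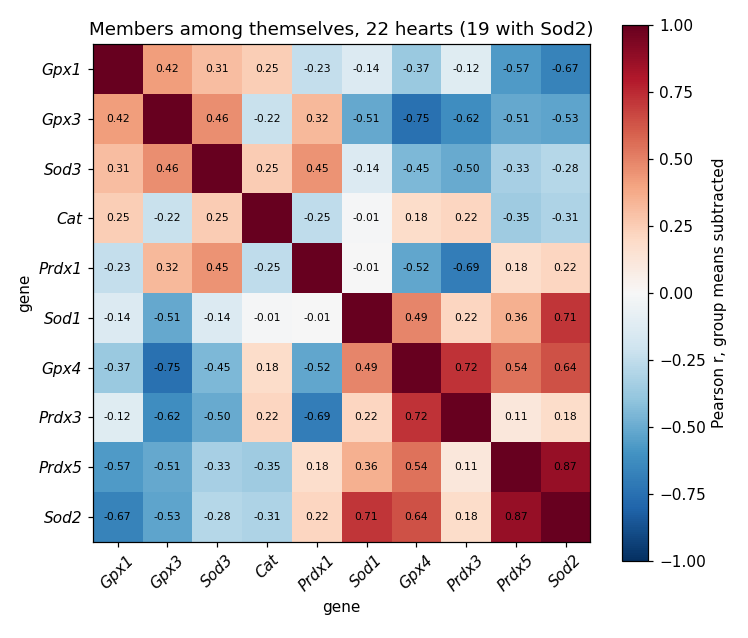
Pearson r between each pair of members (both axes) over 22 hearts, 19 for pairs with Sod2, after subtraction of group means; red is positive and blue negative, with r printed in each cell. Sod2 and Prdx5 stand out at 0.87 and Gpx3 and Gpx4 at -0.75.

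For each member the 3 named genes with the highest r over the same mice were listed as a description, with no test. For Gpx3 they were Fgf12 (0.95), Myl1 (0.94) and Dkk3 (0.92), of which Dkk3 is in the atrial list. For Sod2 they were Mrpl28, a mitochondrial ribosomal protein (0.97), Acadvl, an enzyme of fatty acid oxidation (0.91), and Akt1 (0.89), over 19 arrays. For Prdx5 they were Rhot2 (0.94), Atp5md (0.92) and Mrpl28 (0.91), and for Gpx4 Timm10 (0.95), Mrps33 (0.94) and Mrps18a (0.93). Gpx1 was closest to Smap1 (0.92), Rbp4 (0.92) and Pgrmc1 (0.91), Prdx1 to Trappc6b (0.93), Plaat3 (0.91) and Cep19 (0.91), and Prdx3 to Pdhb (0.90), Arhgef10l (0.89) and Ube2t (0.89). Catalase, Sod1 and Sod3 had no neighbour above 0.85: their closest genes were Parp6 (0.78), Kcnmb2 (0.85) and Aspa (0.78).

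Other genes of the glutathione, thioredoxin and selenoprotein systems were tested in the same fit, 35 of 36 listed. None passed at day 1 or at day 28. At day 1 the smallest p among those higher belonged to Gpx8 (0.48 ± 0.18), Prdx4 (0.22 ± 0.10) and Txn1 (0.14 ± 0.10). Among those lower it belonged to Idh2, which supplies NADPH in mitochondria (-0.34 ± 0.14), Pstk (-0.23 ± 0.09) and Msrb1 (-0.17 ± 0.08). At day 28 the first 3 of the higher genes were Idh2 (0.29 ± 0.12), Pstk (0.16 ± 0.08) and Glrx (0.14 ± 0.08), and of the lower ones Prdx4 (-0.27 ± 0.09), G6pdx (-0.49 ± 0.25) and Selenop (-0.22 ± 0.11). Between the control groups 8 of 35 passed, 3 higher and 5 lower at day 28, beside 10.4% of all genes (6.93% higher, 3.46% lower). With slide as a block 0 of the 35 passed, as did 0 without the 3 day 28 controls with lung epithelium or liver transcripts. Higher were Prdx4, the peroxiredoxin of the endoplasmic reticulum (0.53 ± 0.09, adjusted p 0.0028, limma), G6pdx (0.86 ± 0.26) and Selenop, which carries selenium in plasma (0.43 ± 0.12). Lower were Idh2 (-0.49 ± 0.13), Sesn1 (-0.45 ± 0.11), Msrb1 (-0.33 ± 0.08), Glrx5 (-0.31 ± 0.08) and Pstk (-0.28 ± 0.09).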

How the data were processed

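Heart RNA of 22 mice was measured on Agilent 2-colour arrays, 9 slides scanned on 3 days. Per the file headers, the deposited scanner files were made with Agilent Feature Extraction 10.7.3.1; the submitters' processing notes name version 9.5.3.1. The deposited files hold median intensities of spot and local background in both channels, and a log10 ratio computed by the scanner software, used as an alternative. The authors' deposited value table is on a log2 scale with its method not given in the sources used here, and it was used as an alternative. RNA integrity numbers were 7 or above, per the labels.

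Mean intensities had been planned, but the files used here hold medians. Background was corrected with normexp (offset 50, fitted without spots marked for uneven background), arrays were normalized by loess with control spots at weight 0, and 0.299% of spots were left out. A probe was kept (19281 were) if its Cy5 signal was well above background on 5 or more of 22 arrays, and a gene was represented by its brightest kept probe. Symbols came from RefSeq accessions (23374 probes, 16535 symbols). Groups were compared with limma 3.58.1 in R 4.3.3 (with the package data.table, version 1.17.8) as 1 mean per group with Benjamini-Hochberg adjustment over 15510 genes, a procedure tested on simulated data. Python 3.11.15 and matplotlib 3.10.9 drew the figures. The number of arrays limits the precision. Members, gene lists and tests were chosen with earlier results of these data known. Named genes are all members, among the other antioxidant genes those ranking first to 3rd by p in each direction at day 1 and day 28, those called between controls, and the 3 closest genes of each member. Alternatives changed background correction, normalization, channel, filter, probe summary, moderation, samples fitted and batch blocks, and left out single arrays.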

Additional observations from a re-analysis of the deposited data

Results flagged for a closer look

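Gpx3 in nano-TiO2 day 1 replicate 1 had a log2 ratio of 3.21, far below the nearest of the other 4 hearts of its group, at 4.22. Its gap took 0.801 of the group's range, above the critical value of 0.71. Of 40 groups tested (10 members in 4 groups) 1 was marked in this way, and chance marks about 1 in 20. The same heart had an atrial marker mean of -3.14, the lowest of all 22 hearts.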

How the results depend on the processing

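Under 16 alternatives (15 for the difference of the effects) and with each array left out in turn, the number of genes called between treated and control hearts was 0 except as follows. At day 1 it was 1 with plain background subtraction, 7 with the scanner's log ratios, 35 without the 3 hearts with few atrial transcripts and 0 to 21 with 1 array left out (21 without nano-TiO2 day 1 replicate 1). At day 28 it was 1 with plain subtraction and 0 to 3 with 1 array left out (3 without control day 28 replicate 6). For the difference of the effects it was 48 with scanner log ratios, 6 with scan day as a block, 95 without the 3 hearts with few atrial transcripts and 0 to 315 with 1 array left out (315 without nano-TiO2 day 1 replicate 1, 180 without nano-TiO2 day 28 replicate 3, 99 without control day 28 replicate 6 and 34 without nano-TiO2 day 28 replicate 6). Between controls, 1611 became 78 with normexp on all spots, 3860 with scanner log ratios (1827 higher, 2033 lower), 87 with median centring (87 higher, 0 lower), 0 with slide as a block (2805 at an unadjusted p under 0.05), 27 without the hearts with lung epithelium or liver transcripts, and 949 to 2067 with 1 array left out (949 without control day 1 replicate 2, 952 without control day 28 replicate 4, 1060 without control day 1 replicate 1 and 1061 without control day 28 replicate 5). Between the treated groups of the 2 days it was 0 throughout. The exclusions of hearts by markers were chosen after seeing the data. The cause was not tested.

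Median centring moved the median of all genes by 0.17, -0.10 and 0.13 (day 1, day 28, controls) and turned the sign of members near 0: at day 1 Gpx4 0.33, Cat 0.14, Sod2 0.24, Prdx3 0.13 and Prdx5 0.19; at day 28 Gpx4 -0.030, Cat -0.089, Sod2 -0.096 and Prdx1 -0.020; between controls Gpx4 0.022, Cat 0.14, Sod1 0.27, Sod2 0.021 and Prdx1 0.25. Plain subtraction turned Gpx3 (-0.012, 0.11 and -0.35 in the same order), Gpx4 at day 1 (0.015) and Sod1 between controls (0.076). Scanner log ratios turned Gpx3 (-0.12, 0.18, -0.56), Gpx4 (0.019) and Prdx1 (-0.096) at day 1, and Sod1 at day 28 (0.00034). For the difference of the effects Gpx3 turned with plain subtraction (0.13) and scanner log ratios (0.30) and Prdx3 with median centring (-0.13), and between the treated groups Cat turned with normexp on all spots (-0.23), scanner log ratios (-0.0057) and median centring (-0.086). Normexp on all spots turned Cat (0.033 at day 1, -0.096 at day 28). Slide as a block turned Sod2 at day 28 (-0.0083), and Sod1 (0.13) and Prdx1 (0.014) between controls. Between controls Sod1 also turned with scan day as a block (0.030), the deposited value table (0.11), without hearts with few atrial transcripts (0.0027) and without those with lung or liver transcripts (0.0014). Prdx1 turned in the last 3 of these settings too (3.9e-05, 0.061 and 0.12). Without the hearts with lung or liver transcripts Prdx5 at day 28 turned (-0.025). Leaving out 1 array turned Gpx4 at day 1 (-0.15 to 0.036), Cat (-0.035 to 0.13) and Sod1 (-0.089 to 0.052) at day 28, and Sod1 (-0.043 to 0.057) and Prdx1 (-0.10 to 0.063) between controls.

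The calls of Gpx3, Gpx1 and Prdx5 between controls were also lost with normexp on all spots (adjusted p 0.197, 0.110 and 0.117) and with median centring (0.138, 0.260 and 0.807). Prdx5 lost its call without hearts with few atrial transcripts (0.068). Calls were gained between controls by Sod2 (adjusted p 0.013 in scanner log ratios, 0.022 in the deposited value table, 0.019 without control day 28 replicate 6), Prdx3 (0.014 in scanner log ratios, 0.0496 without hearts with few atrial transcripts) and Sod3 (0.046 in scanner log ratios). Of the other antioxidant genes, the 8 of 35 called between controls became 15 with scanner log ratios, 1 with normexp on all spots and 0 with median centring, slide as a block or without hearts with lung or liver transcripts. Signal over background limits Sod3, which the stricter filter removed. Over the other 15 alternatives its difference ran from 0.086 to 0.59 at day 1, from -1.37 to -0.015 at day 28 and from 0.11 to 1.99 between controls. No paired analysis was possible because the labels give no replicate numbers shared between groups; slide and scan day were fitted as blocks instead.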
